A study of Mus musculus with 10 samples.

Results

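The Reg genes encode small secreted C-type lectins of the gut and pancreas. The 5 genes described here, *Reg1*, *Reg3a*, *Reg3b*, *Reg3g* and *Reg4*, were taken by symbol from the 35275 Ensembl gene IDs that were counted in every library. RNA-seq was carried out on sections labelled proximal intestine from 5 WT mice and 5 *Zip14* KO mice, with 1 library per mouse. The KO mice lack the zinc transporter Zip14 (*Slc39a14*); the study's methods describe a deletion in the whole body with WT mice of the same strain as controls, both bred from heterozygous parents, while the series title names a deletion in enterocytes. The labels give ages of 8 to 10 weeks for all mice and no treatment. Both sexes were used in the study, and the sex of each mouse is not given in the labels. The libraries held between 16729787 and 20819678 counts. Levels are given as CPM, counts scaled by TMM to a common library size, and a gene was called changed when its adjusted p was under 0.05 in edgeR's quasi-likelihood test, with a Benjamini-Hochberg correction across the 15610 genes that passed the filter on low counts.

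Reg3g and Reg3b are among the most abundant antimicrobial proteins of the small intestinal epithelium. Reg3g binds peptidoglycan and kills Gram-positive bacteria, which keeps microbes at a distance from the villus surface, and Reg3b acts mainly against Gram-negative bacteria. Both are induced by bacterial colonization, through MyD88 signalling and through IL-22 acting on STAT3 in epithelial cells, and both are known to be more abundant toward the distal small intestine. Reg1 was first described in regenerating pancreatic islets. Reg4 is a more distant relative found in enteroendocrine and other secretory cells of the gut.

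The targeted gene was counted first. *Slc39a14* averaged 260.4 ± 62.5 CPM over WT and 102 ± 32.9 CPM over KO libraries (SD, n = 5 each), and all KO libraries lay below all WT libraries. The counts are summed over the whole gene, so exons that a deletion leaves in place are counted too. The other KO libraries lay between 78.5 and 93.8 CPM, and KO replicate 1 lay at 160.1 CPM. The labelled tissue was then checked against marker genes. Genes of the proximal small intestine, led by *Lct*, *Fabp1* and *Gata4*, summed to between 5038 and 6754 CPM in WT libraries and to between 72.8 and 849 CPM in KO libraries. Genes of the ileum, led by *Fabp6*, *Slc51a* and *Guca2a*, summed to between 304 and 692 CPM in WT libraries and to between 3884 and 11329 CPM in KO libraries. Neither sum overlapped between the groups, so that genotype and the position along the intestine that these markers stand for cannot be told apart in any result given here. In tissue RNA, fewer cells of a type and less RNA per cell cannot be told apart either.

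The genes *Reg3b*, *Reg3a*, *Reg1* and *Reg3g* lie within a cluster on chromosome 6 of the mouse genome GRCm38, and *Reg4* lies alone on chromosome 3. In GENCODE M21, *Reg3b* (ENSMUSG00000071356) spans 78370657 to 78373466 on the plus strand, *Reg3a* (ENSMUSG00000079516) 78380709 to 78383827 on the plus strand, *Reg1* (ENSMUSG00000059654) 78422711 to 78428667 on the plus strand, and *Reg3g* (ENSMUSG00000030017) 78466269 to 78468872 on the minus strand. *Reg4* (ENSMUSG00000027876) spans 98222156 to 98236748 on the plus strand of chromosome 3. All 5 are protein-coding, and no other annotated gene overlaps any of them on either strand. Aligned over their main transcripts, *Reg3b* and *Reg3g* were 74.4% identical, *Reg3a* and *Reg3b* 75.5%, and *Reg4* between 63.2% and 65.8% identical to the other 4. The longest run shared exactly by any pair of the 5 was 35 bases, between *Reg3b* and *Reg3g*. No pair shared a run of 50 bases.

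The promoters of 4 members are shown because *Reg3b* and *Reg3g* kept close to a fixed ratio in all libraries, while *Reg3a* and *Reg1* of the same cluster were lower in KO mice. Each is the RefSeq window from 250 bases before to 50 bases after a start site on GRCm38.p6, 5′ to 3′ on the strand of the gene. The positions are chr6:78370635-78370934 on the plus strand for *Reg3b*, chr6:78468825-78469124 on the minus strand for *Reg3g*, chr6:78380459-78380758 on the plus strand for *Reg3a* and chr6:78425733-78426032 on the plus strand for *Reg1*. Capitals mark matches on either strand to a STAT motif (TTCNNNGAA), an NF-κB motif (GGG and CC with any 5 bases between them) or TATAAA.
Reg3b: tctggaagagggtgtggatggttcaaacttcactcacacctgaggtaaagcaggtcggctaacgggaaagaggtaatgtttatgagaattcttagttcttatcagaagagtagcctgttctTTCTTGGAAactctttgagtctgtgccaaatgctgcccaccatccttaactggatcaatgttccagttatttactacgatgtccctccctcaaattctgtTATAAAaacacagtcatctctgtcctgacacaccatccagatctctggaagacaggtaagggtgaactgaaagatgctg
Reg3g: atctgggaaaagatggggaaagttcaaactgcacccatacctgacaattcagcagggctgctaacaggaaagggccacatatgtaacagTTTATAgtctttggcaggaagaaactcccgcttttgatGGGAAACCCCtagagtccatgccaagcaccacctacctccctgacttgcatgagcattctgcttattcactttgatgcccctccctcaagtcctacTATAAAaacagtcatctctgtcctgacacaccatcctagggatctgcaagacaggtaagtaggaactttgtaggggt
Reg3a: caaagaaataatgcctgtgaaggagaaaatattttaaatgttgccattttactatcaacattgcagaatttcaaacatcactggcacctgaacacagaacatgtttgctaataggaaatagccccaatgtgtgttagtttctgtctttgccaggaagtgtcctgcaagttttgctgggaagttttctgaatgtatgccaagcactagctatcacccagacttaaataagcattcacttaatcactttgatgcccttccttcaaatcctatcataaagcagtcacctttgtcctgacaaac
Reg1: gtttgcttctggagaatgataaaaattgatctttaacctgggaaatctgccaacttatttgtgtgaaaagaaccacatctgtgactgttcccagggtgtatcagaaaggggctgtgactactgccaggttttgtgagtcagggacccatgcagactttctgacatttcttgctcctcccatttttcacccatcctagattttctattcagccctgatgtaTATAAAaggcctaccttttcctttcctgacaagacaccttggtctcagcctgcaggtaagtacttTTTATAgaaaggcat

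The *Reg3b* window held 1 STAT match, from -129 to -121 relative to the start site, and the *Reg3g* window held 1 NF-κB match, from -123 to -114. A STAT match is present in 8.30% and an NF-κB match in 50.8% of all 32851 promoter windows of this length. TATAAA was found from -29 to -24 in *Reg3b*, from -27 to -22 in *Reg3g* and from -30 to -25 in *Reg1*, with a further match on the reverse strand in *Reg3g* and in *Reg1*, and 13.6% of all windows hold it. The windows of *Reg3a* and *Reg4* held none of the 3 motifs. The *Reg3a* and *Reg3g* windows were 73.7% identical over 243 aligned bases and the *Reg3b* and *Reg3g* windows 71.4% over 294. The *Reg4* window, from another chromosome, was between 62.9% and 67.6% identical to those of the other 4 where aligned. These letters are a description of the windows and were not compared with any measurement of binding.

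Of the 5 members, *Reg1* and *Reg3a* fell and *Reg4* rose in KO mice, whereas *Reg3b* and *Reg3g* were not past the threshold. By the same test 29.9% of all tested genes were called, 16.0% higher and 13.9% lower in KO mice. With a score for smooth muscle genes as a covariate none of the 3 calls held, while the log2 fold changes were -5.47 for *Reg1*, -2.27 for *Reg3a* and 1.96 for *Reg4*. With a score for epithelial genes, none held either, at -1.08, -0.14 and 2.79. The epithelium score also turned *Reg3b* from 0.91 to -3.28 and *Reg3g* from 1.21 to -2.88, without a call. Neither score overlapped between the groups. Over all tested genes 9 were called with the smooth muscle score and 0 with the epithelium score, in place of 4660. For *Reg1* and *Reg3a* all KO libraries lay below all WT libraries. Libraries of the groups did not overlap for 21.1% of all tested genes, and 10.8% of all tested genes were lower in KO mice without overlap. For no member were all KO libraries above all WT libraries, which was the case for 10.2%.

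**Figure D1:**
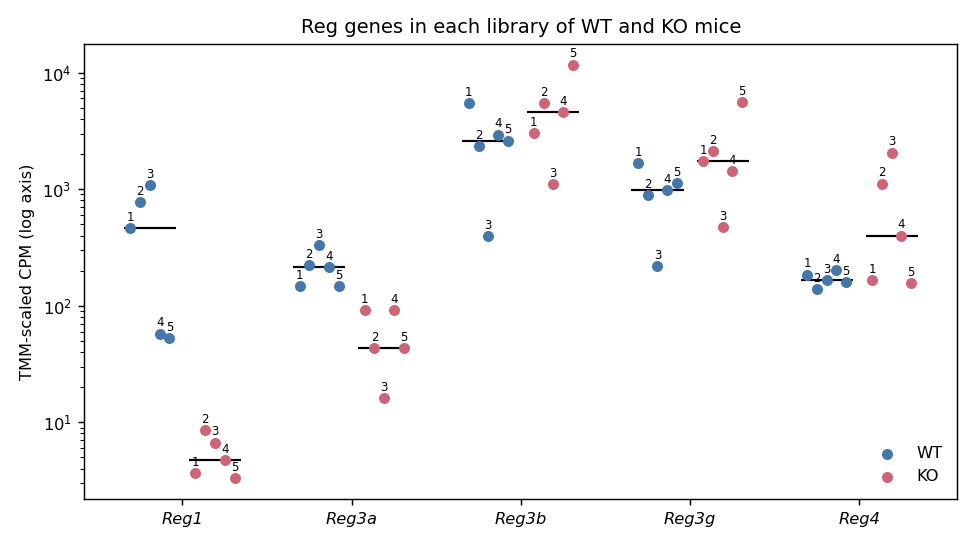
TMM-scaled CPM on a log axis for the 5 Reg genes, with 1 point per library numbered by replicate, WT in blue and KO in red, and a bar at the median of each group. *Reg1* and *Reg3a* do not overlap between the groups, while 2 of 5 KO libraries lie within the WT range for *Reg4*.

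*Reg1* had the largest difference of the family. WT replicates 1 to 5 had 460.0, 773, 1091, 57.5 and 52.7 CPM, and KO replicates 1 to 5 had 3.66, 8.50, 6.69, 4.72 and 3.31 CPM. The WT libraries fell into a higher set of 3 and a lower pair, but even the lowest WT library was above the highest KO library. The log2 fold change was -6.50 (standard error 0.92, 95% interval -8.52 to -4.48, edgeR adjusted p = 9.32e-04), a level 90.5-fold lower in KO mice. In mean log2 CPM the groups differed at the limit of the exact permutation test over all 252 splits of the mice (2-sided p = 0.00794, the smallest it can give). In counts, 41680 reads over the WT libraries stood against 513 over the KO libraries. Without any single mouse the log2 fold change stayed between -6.80 and -5.97.

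*Reg3a*, a further secreted lectin of the *Reg3* group, fell by less. WT replicates 1 to 5 had 146, 223, 330.3, 215 and 147 CPM, and KO replicates 1 to 5 had 91.1, 43.3, 16.0, 91.9 and 43.5 CPM. The WT values lay within a 2.26-fold range and the KO values within a 5.75-fold range, without overlap. The log2 fold change was -1.89 (standard error 0.42, 95% interval -2.83 to -0.96, edgeR adjusted p = 0.00842), or 3.71-fold lower in KO mice. The exact permutation test was again at its smallest p of 0.00794. Without any single mouse the log2 fold change stayed between -2.13 and -1.66 and was called each time.

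*Reg3b* had the highest mean level of the members in both groups, although *Reg1* was above it in WT replicate 3 and *Reg4* in KO replicate 3. WT replicates 1 to 5 had 5497, 2328, 394, 2938 and 2615 CPM, and KO replicates 1 to 5 had 3033, 5472, 1107, 4592 and 11705 CPM. The WT libraries spread over a 14.0-fold range and the KO libraries over a 10.6-fold range, and only KO replicate 5 lay above every WT library. The means were 2754 ± 1825 CPM in WT mice and 5182 ± 4006 CPM in KO mice (SD, n = 5 each). The log2 fold change of 0.91 (standard error 0.65, 95% interval -0.52 to 2.35, edgeR adjusted p = 0.305) was within the spread between mice. The exact permutation test gave p = 0.333.

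*Reg3g* followed *Reg3b* closely. WT replicates 1 to 5 had 1681, 891, 220.2, 980.4 and 1129 CPM, and KO replicates 1 to 5 had 1742, 2112, 475, 1426 and 5548 CPM. Of the KO libraries, 3 lay above every WT library, and KO replicates 3 and 4 lay within the WT range. The means were 980.2 ± 524 CPM in WT mice and 2261 ± 1936 CPM in KO mice (SD, n = 5 each). The log2 fold change was 1.21 (standard error 0.61, 95% interval -0.13 to 2.54, edgeR adjusted p = 0.152), and the exact permutation test gave p = 0.238. KO replicate 5 held the highest level of both lectins. Leaving it out moved the log2 fold change to 0.55 for *Reg3g* and to 0.37 for *Reg3b*. WT replicate 3 held the lowest level of both.

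**Figure D2:**
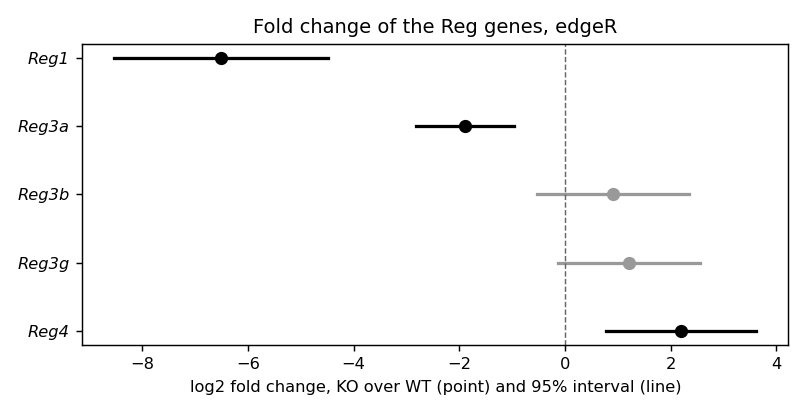
Log2 fold change of KO over WT mice for each Reg gene (point) with its 95% interval (line) from edgeR, black where the adjusted p was under 0.05 and grey otherwise. The intervals of *Reg1* and *Reg3a* lie below 0, that of *Reg4* lies above 0, and those of *Reg3b* and *Reg3g* hold 0.

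*Reg4* was higher in some KO mice only. WT replicates 1 to 5 had 184, 139, 166, 201 and 159.9 CPM, a 1.45-fold range that was the narrowest of the family. KO replicates 1 to 5 had 165, 1118, 2060.1, 400.1 and 157 CPM. KO replicates 2, 3 and 4 were above every WT library, and KO replicates 1 and 5 were within the WT range. The log2 fold change was 2.20 (standard error 0.65, 95% interval 0.78 to 3.62, edgeR adjusted p = 0.0266), or 4.59-fold higher. The exact permutation test on log2 CPM did not pass its threshold (p = 0.119). Leaving out KO replicate 3 moved it to 1.42 on the log2 scale (edgeR adjusted p = 0.0680), and the call was lost. It was also lost without KO replicate 2 or without WT replicate 1, 2, 3 or 5, where the log2 fold change stayed between 2.02 and 2.22 (edgeR adjusted p between 0.0512 and 0.0649).

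Levels were compared between members per kilobase of merged exons. In WT mice *Reg3b* had 2412 ± 1598 CPM per kb, *Reg1* 539 ± 501, *Reg3g* 464 ± 248, *Reg3a* 257 ± 91.3 and *Reg4* 167 ± 23.4 CPM per kb (SD, n = 5 each). Every pair of neighbours in this order overlapped in range, and *Reg1* was above *Reg3g* in 2 of 5 WT libraries. In KO mice the order was *Reg3b* with 4537 ± 3508, *Reg3g* with 1069 ± 916, *Reg4* with 764 ± 799, *Reg3a* with 69.3 ± 40.4 and *Reg1* with 5.95 ± 2.42 CPM per kb (SD, n = 5 each). There *Reg4*, *Reg3a* and *Reg1* did not overlap with each other, while *Reg3b*, *Reg3g* and *Reg4* overlapped. By mean level per kb *Reg1* ranked 84 among 15538 tested genes in WT mice and 6360 in KO mice, and *Reg3b* ranked 18 and 8. The merged exons of *Reg3g* include a transcript with a retained intron (2114 bases in all, against 771 bases in its coding transcript). Per kb of the coding transcript *Reg3g* had 1271 ± 680 CPM in WT mice (SD, n = 5) and was then above *Reg1* in 4 of 5 libraries.

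The members were next compared with each other within each library, where the scaling of a library cancels. The ratio of *Reg3b* to *Reg3g* lay between 1.74 and 3.27 over all 10 libraries, a 1.88-fold range, while *Reg3b* itself spanned a 29.7-fold range and *Reg3g* a 25.2-fold range. Its mean log2 value was 1.35 ± 0.34 in WT mice and 1.23 ± 0.33 in KO mice (SD, n = 5 each), and the difference of -0.11 did not pass the exact permutation test (adjusted p = 0.724 over 10 pairs). By contrast, *Reg1* fell against each of *Reg3b*, *Reg3g* and *Reg4*, with differences in the log2 ratio of -6.59, -6.70 and -7.14 (adjusted p = 0.0159 for each, exact permutation test over 10 pairs). *Reg3a* fell against *Reg3b*, *Reg3g* and *Reg4*, with differences of -3.01, -3.12 and -3.56 (adjusted p = 0.0265, 0.0159 and 0.0159, exact permutation test). These 6 differences passed the threshold without any single mouse, but their size moved. Without WT replicate 3 the values against *Reg3b* and *Reg3g* were -5.47 and -5.71 for *Reg1* and -2.23 and -2.47 for *Reg3a*. Without WT replicate 4 or 5 those of *Reg1* reached -7.26 against *Reg3b*, -7.39 against *Reg3g* and -7.75 against *Reg4*. *Reg3a* against *Reg4* was at -2.64 without KO replicate 3 and at -4.18 without KO replicate 1. *Reg1* also fell more than *Reg3a*, with a difference of -3.58 (adjusted p = 0.0340, exact permutation test), which was lost on leaving out WT replicate 1, 2 or 3 or KO replicate 1, 2, 4 or 5, where the difference stayed between -3.80 and -3.22 (adjusted p between 0.0567 and 0.0680, exact permutation test). The log2 ratios of *Reg3b* and *Reg3g* over *Reg4* changed by -0.55 and -0.44 without passing the threshold (adjusted p = 0.767 and 0.778, exact permutation test). Both ratios varied widely among KO mice, with SDs of 2.63 and 2.73 (n = 5).

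**Figure D3:**
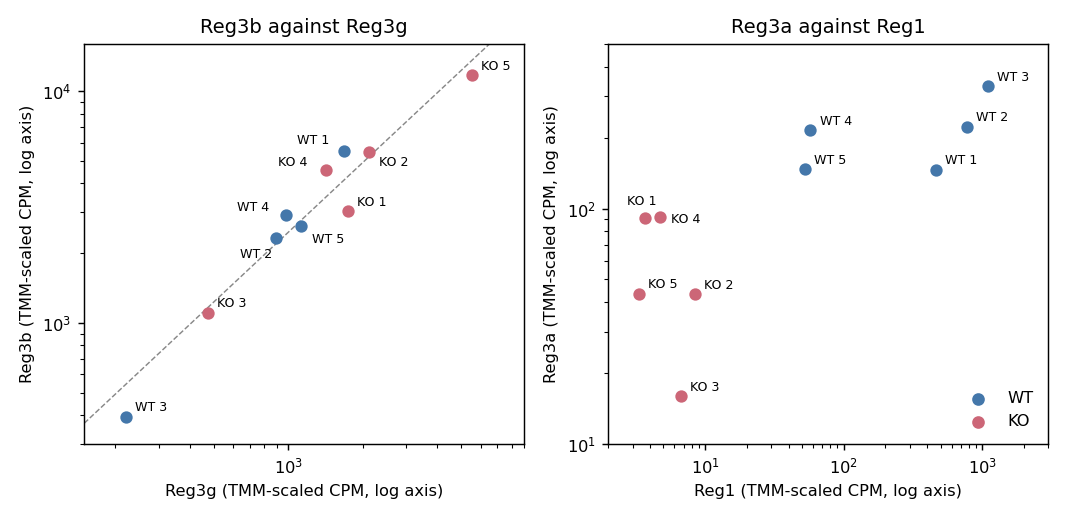
TMM-scaled CPM of *Reg3b* against *Reg3g* (left, with a dashed line at the median ratio of 2.46) and of *Reg3a* against *Reg1* (right), both on log axes, with 1 point per library. Libraries of both groups follow the dashed line on the left, and on the right the KO libraries lie apart from the WT libraries at low *Reg1*.

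The likeness between genes was described by Pearson's r of log2 CPM centred on the group means over the 10 libraries, which share the composition and scaling of each library. *Reg3b* and *Reg3g* had r = 0.97, and each was the gene most like the other among the genes with a mean of at least 5 CPM. Outside the family, the genes most like *Reg3b* were *Lurap1l* (0.92), *2310022A10Rik* (0.91) and *Disp1* (0.91), and those most like *Reg3g* were *Nucb1* (0.95), *Efhd2* (0.94) and *Lurap1l* (0.93). For *Reg3a* they were *Gstt2* (0.97), *Gal3st2b* (0.96) and *Nr1h3* (0.94), the last encoding the oxysterol receptor LXRα. For *Reg1* they were *Miga2* (0.98), *Gstm4* (0.96) and *Ankrd9* (0.96). For *Reg4* they were *Dclk1* (0.99), *Gm45837* (0.97) and *Rgs13* (0.97). *Dclk1* encodes a kinase that marks tuft cells of the intestine.

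*Dclk1* had between 15.5 and 20.1 CPM in WT libraries and 9.29, 68.8, 103, 25.4 and 13.1 CPM in KO replicates 1 to 5. These values restate the likeness by which it was chosen. *Dclk1* itself was 1.25 higher in KO mice on the log2 scale without being called (edgeR adjusted p = 0.112).

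The pathway upstream of *Reg3b* and *Reg3g* was examined with lists of genes. Of 20 genes of IL-22 and IL-6 receptor signalling 15 were tested, and 1 rose and 4 fell, and the median of their log2 fold changes was -0.13, beside 0.03 for all tested genes. Over all tested genes 29.9% were called, 16.0% higher and 13.9% lower, so that the 5 called genes of 15 were near that background. *Il22* itself was too low for the test, with 3 counts in WT mice and 10 in KO mice. *Il22ra1*, the specific chain of its receptor, averaged 77.2 ± 6.90 CPM over WT and 73.0 ± 33.0 CPM over KO libraries (SD, n = 5 each; log2 fold change -0.08, edgeR adjusted p = 0.862). *Stat3* had a log2 fold change of -0.13 (edgeR adjusted p = 0.391). The genes that fell were *Il18*, an epithelial cytokine (-2.35), *Socs3*, a feedback inhibitor that STAT3 induces (-1.01), *Jak2* (-0.56) and *Il10rb*, the shared chain of the IL-22 receptor (-0.47), and *Il11ra1* rose (0.64). *Socs3* averaged 81.0 ± 25.7 CPM over WT and 40.2 ± 10.1 CPM over KO libraries (SD, n = 5 each; edgeR adjusted p = 0.00992), with KO replicate 5 the only KO library that overlapped with WT mice.

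Of 14 genes of microbial sensing all were tested, and 4 rose and 2 fell, with a median log2 fold change of 0.12. This too stood beside 29.9% called among all tested genes, and without KO replicate 1 only 3 rose. *Tlr2*, a receptor for bacterial lipoproteins, rose from 2.51 ± 0.431 to 6.36 ± 2.17 CPM (SD, n = 5 each), without overlap between the groups. This was 1.34 on the log2 scale (standard error 0.23, edgeR adjusted p = 0.00251). *Tlr4* (1.19), *Nod1* (0.62) and *Ripk2* (0.48) rose too, and *Irak4* fell (-0.28). *Myd88*, the adaptor through which Toll-like receptors signal, had a log2 fold change of 0.19 (edgeR adjusted p = 0.173). *Extl3*, a candidate receptor for Reg proteins, rose by 0.38 on the log2 scale (edgeR adjusted p = 0.0230), and *Egfr*, the other gene of that list, was not past the threshold.

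Other antimicrobial and defence proteins of the epithelium were compared with the Reg genes. Of 24 genes 19 were tested, 8 rose and none fell in edgeR's test, with a median log2 fold change of 1.74. Among all tested genes 16.0% rose and 13.9% fell. Among the called genes the largest values were those of *Saa1* (8.40), an acute-phase protein, *Nos2* (4.55), the inducible nitric oxide synthase, *Duoxa2* (3.84) and *Duox2* (3.26), which form the epithelial dual oxidase, and *Saa3* (2.98). *Saa1* and *Nos2* did not overlap between the groups, while *Duoxa2*, *Duox2* and *Saa3* did. Over all tested genes, 10.2% were higher in KO mice without overlap. Reads of *Saa1* can be shared with close relatives. *Sprr2a1*, *Sprr2a2* and *Sprr2a3*, relatives by name, were each counted among the 8, and whether they share reads was not tested. Some genes of this list, such as *Lyz1* and *Itln1*, are also among the Paneth or goblet cell markers given further on.

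**Figure D4:**
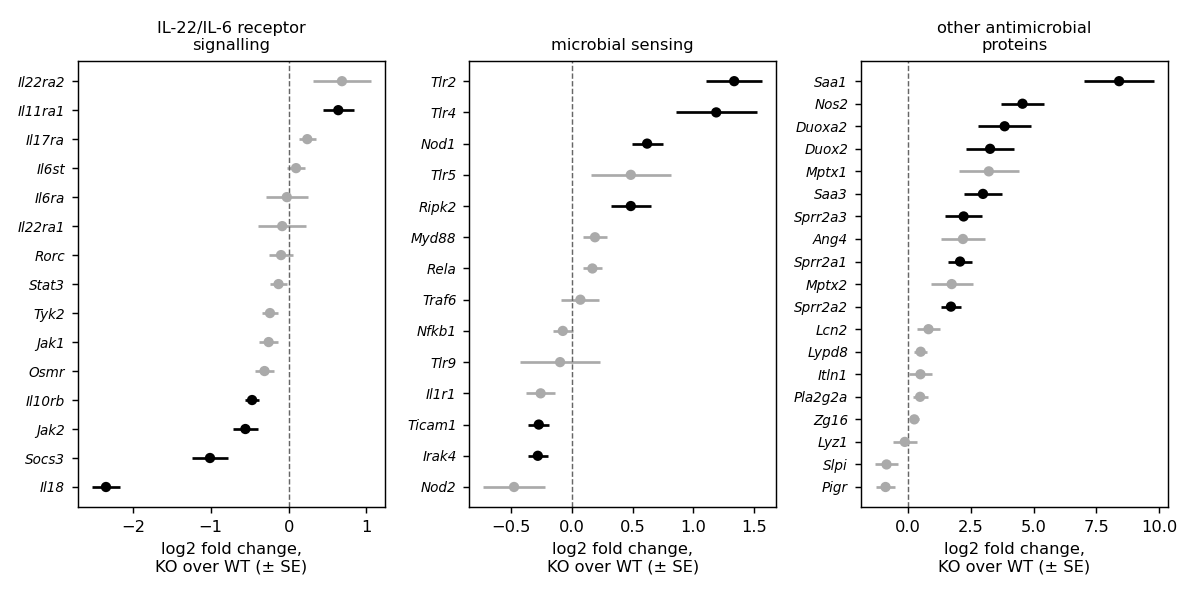
Log2 fold change of KO over WT mice with its standard error for the tested genes of 3 lists, black where the adjusted p was under 0.05 by edgeR and grey otherwise. The receptor signalling list has 1 called gene on the right of 0 and 4 on the left, and the antimicrobial list has 8 called genes, all on the right; the horizontal axes differ in scale.

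Markers of the cells that express Reg genes were counted in the same libraries, and each count of called markers stands beside 16.0% higher and 13.9% lower among all tested genes. Of 11 genes of pancreatic acinar cells, which make Reg proteins in abundance, the counts summed to between 4.21 and 12.1 CPM in WT libraries and to between 5.24 and 39.1 CPM in KO libraries, and *Amy2a5* was at 0 counts in all libraries. In WT replicates 1 to 3, with 460.0 to 1091 CPM of *Reg1*, they summed to at most 12.1 CPM. Of this list 3 genes were tested, and *Sycn* rose (edgeR adjusted p = 0.0431) and none fell. The highest sums were those of KO replicates 2 and 3, at 39.1 and 36.4 CPM, where *Reg1* had 8.50 and 6.69 CPM and *Reg4* was highest. Of the other genes of the Reg cluster, *Reg2* had 0 counts in all 5 WT libraries, where a count of 0 allows up to 3 counts in a library, and 2 counts in KO mice. *Reg3d* averaged 1.14 ± 0.268 CPM over WT and 0.878 ± 0.431 CPM over KO libraries (SD, n = 5 each; log2 fold change -0.38, edgeR adjusted p = 0.462).

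Of 9 Paneth cell genes, led by *Defa24*, *Lyz1* and *Itln1*, 1 rose (*Nupr1*) and none fell by edgeR, and they summed to between 8275 and 24116 CPM in WT libraries and between 7343 and 30894 CPM in KO libraries. KO replicate 5, with the highest *Reg3b* and *Reg3g*, had the lowest of these sums. Of 8 goblet cell genes, led by *Fcgbp*, *Zg16* and *Muc2*, 6 rose and none fell, beside 16.0% and 13.9% of all tested genes. Their sums overlapped slightly, from 11251 to 17014 CPM in WT libraries and from 16917 to 24199 CPM in KO libraries, with the highest in KO replicates 2 and 3, which also held the most *Reg4*. Of 12 enteroendocrine genes, led by *Chgb*, *Chga* and *Sct*, 3 rose and 6 fell. On the log2 scale *Sct* (0.85), *Gcg* (0.91) and *Pyy* (3.09), the last also of the ileum list, rose. *Gip* (-3.83) and *Cck* (-2.90) were among those that fell. The sums of the 12 genes did not overlap, from 504 to 648 CPM in WT libraries and from 304 to 440 CPM in KO libraries. The lowest of these sums was in KO replicate 3, the library with the most *Reg4*. The part of these cell types in the Reg results was not tested.

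**Figure D5:**
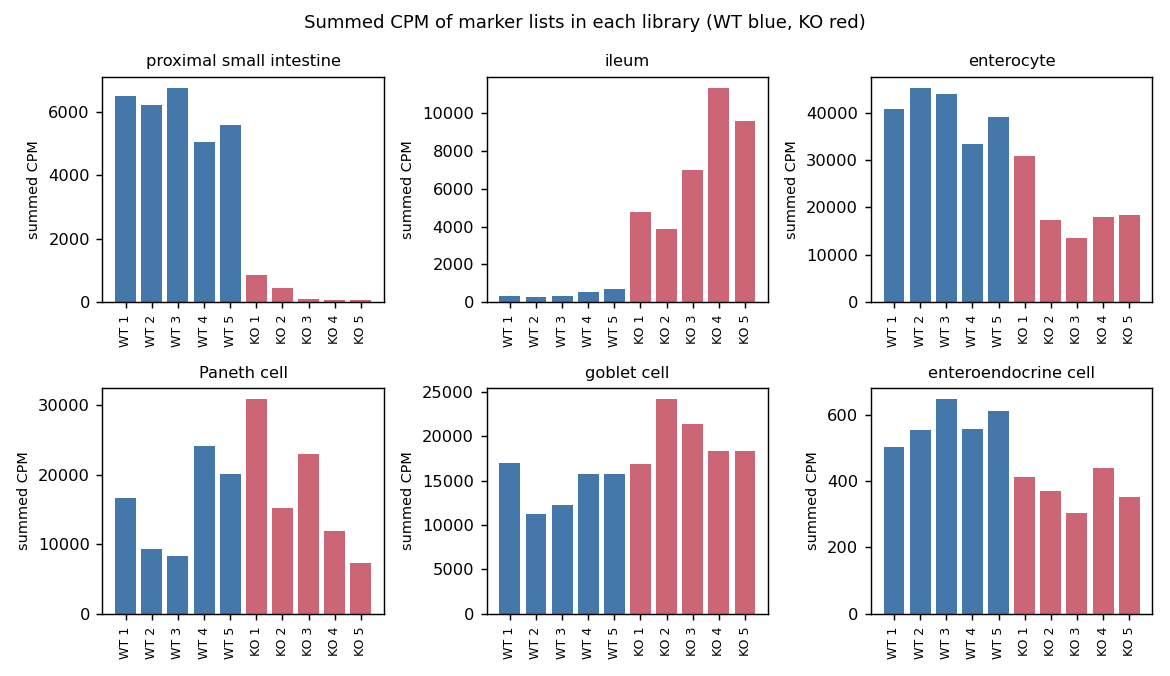
Summed CPM of the genes of 6 marker lists in each library, WT in blue and KO in red, with vertical axes that start at 0. The sums of proximal genes and of ileal genes do not overlap between the groups, and Paneth cell sums do.

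The remaining lists were counted beside the same background of 16.0% higher and 13.9% lower genes, and of 21.1% of genes without overlap between the groups. Of 10 enterocyte genes 5 fell and none rose by edgeR, with sums from 33281 to 45197 CPM in WT and 13491 to 30839 CPM in KO libraries; without KO replicate 1, 8 fell. All 10 smooth muscle genes rose, with sums from 1280.3 to 2269 CPM in WT and 3477 to 10574 CPM in KO libraries. Of 10 genes shared by all epithelial types 8 rose and none fell, with sums from 6836 to 8699 CPM and from 11628 to 15102 CPM. Of 7 colon genes 4 were tested, and 2 rose and 1 fell. Their sums were highest in KO replicates 2 and 3, at 1760.1 and 520.4 CPM, the libraries with the most *Reg4*, against 299 to 419 CPM in WT libraries. KO replicates 1, 4 and 5 had sums of 286, 200 and 369 CPM. The untested *Car1* reached 1172 CPM in a KO library and was at 0 in all WT libraries. Only the sum of KO replicate 2 was large enough to hold that value. Of 8 ileal genes 7 rose and none fell by edgeR, and of 7 proximal genes 1 rose and 3 fell. The 6 stomach genes were not tested and summed to at most 3.25 CPM, and of 7 neutrophil genes, which summed to at most 8.92 CPM, none of the 2 tested was called by edgeR, and 1 was called lower without KO replicate 1. Their part in the Reg results was not tested.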

How the data were processed

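RNA was measured in 10 libraries, 1 per mouse, from frozen intestinal segments with a SMARTer mRNA-Seq kit, and sequenced on an Illumina NovaSeq instrument. The authors deposited counts of reads per Ensembl gene ID, as whole numbers without normalization. The submitters' processing notes name FastQC 0.11.9, Trimmomatic, HISAT2 2.0.4, SAMtools 1.3.1 and DESeq2 1.14.1, and the builds GRCm38 and mm10. The sources used here do not give the read counter, the annotation or the strand setting. Reads within shared stretches of Reg transcripts could be split between them.

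Gene IDs were matched to GENCODE M21, with a symbol for 34490 of 35275 IDs. Groups were taken from the sample titles. R 4.3.3, edgeR 4.0.16 and DESeq2 1.42.0 were used. The model compared KO with WT mice after TMM scaling on 15610 genes, those that passed filterByExpr with a minimum count of 10 and a minimum total of 15. Log2 CPM had a prior count of 2. Pairs of members were compared by exact 2-sided permutation tests with Benjamini-Hochberg adjustment over 10 pairs. Alignments were made with Biopython 1.88, with end gaps free.

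The members and the gene lists were chosen with earlier results of these data known. Named genes were all members, *Slc39a14*, *Reg2* and *Reg3d*, at most the 5 called genes of each pathway list with the largest change, *Il22*, *Il22ra1*, *Stat3*, *Socs3*, *Myd88* and *Extl3*, the 3 most abundant genes of a marker list, and the 3 genes most like each member. *Egfr*, *Nupr1*, *Amy2a5*, *Onecut2* and the values of *Dclk1*, *Gstm4*, *Guca2a*, *Fabp6*, *Slc51a*, *Lct*, *Fabp1* and *Gata4* by library were chosen after they were seen. So were *Car1*, *Sprr2a1*, *Sprr2a2*, *Sprr2a3*, *Gip*, *Cck*, *Gcg* and *Pyy*. On simulated counts for 5 against 5 mice (15610 genes), edgeR recovered 57 of 100 genes changed by 1 and 94 of 100 changed by 2 on the log2 scale, with 7 false calls among 158, and DESeq2 recovered 72 and 97 with 27 false calls among 196. The simulation changed far fewer genes than the 4660 called in the data and gave both groups the same relative spread. These rates need not hold for the data. Depth allows low counts to be seen: a count of 0 allows up to 3 counts in a library, for counting error only. No pair of libraries held the same counts (chi-square per degree of freedom at least 15.6). Alternatives were RLE scaling, library size only, DESeq2, other filters, each mouse left out, the replicate number as a block and scores for smooth muscle or epithelium as covariates. Lists without KO replicate 1 and levels per coding transcript were added after the data were seen.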

Additional observations from a re-analysis of the deposited data

Results flagged for a closer look

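In KO mice the CPM of *Slc39a14* had 1 library far from the others: KO replicate 1 had 160.1 CPM and the next had 93.8 CPM, a gap of 0.813 of the range of the group. Without KO replicate 1 the log2 fold change of *Slc39a14* was -1.57. Each of the 5 Reg genes lay within the range of the other KO libraries in this library.

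In WT mice the log2 ratio of *Reg3b* over *Reg4* had 1 library far from the others: WT replicate 3 was at 1.25 and the next at 3.87, a gap of 0.717 of the range. This library had the lowest *Reg3b* (394 CPM) and the highest *Reg1* (1091 CPM) of the WT libraries, with *Reg4* at 166 CPM, near the middle of its group. Of 32 groups of 5 values examined in this way, these 2 stood out, and chance gives about 1 in 20.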

How the results depend on the processing

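*Reg1*, *Reg3a* and *Slc39a14* kept their direction and their call with RLE scaling, library size alone, either other filter, DESeq2, the replicate block and each mouse left out. With the smooth muscle score as a covariate the log2 fold changes were -5.47 for *Reg1*, -2.27 for *Reg3a*, 1.96 for *Reg4* and -0.57 for *Slc39a14*, and with the epithelium score they were -1.08, -0.14, 2.79 and -0.34. None of these 8 was called by edgeR (adjusted p at least 0.223), and the epithelium score turned *Reg3b* to -3.28 and *Reg3g* to -2.88, whereas they were at 1.61 and 2.20 with the smooth muscle score, also without a call. Neither score overlapped between the groups, and over all genes 9 were called with the first and 0 with the second (2121 and 608 at an unadjusted p under 0.05 by edgeR; DESeq2 was not run with a score), in place of 4660. With the replicate number as a block, *Reg3g* had a log2 fold change of 1.04 and passed the threshold (adjusted p = 0.0483 by edgeR), and *Reg4* had 1.45 and did not (adjusted p = 0.142); 3848 genes were called. The numbers did not pair the mice, since deviations of equal numbers correlated between -0.17 and 0.19, and 1 of 5 WT libraries was closest to its own number. With single mice left out, *Reg4* ranged from 1.42 to 2.46. The difference of the log2 ratio over *Reg4* ranged from -1.34 to 0.44 for *Reg3b* and from -1.27 to 0.55 for *Reg3g*, above 0 without KO replicate 3, and neither was called. The cause was not tested. Library size alone moved the median of all tested genes from 0.03 to 0.15 on the log2 scale and the share of higher calls from 53.5% to 69.4%, and no member changed its direction or call.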

Other observations

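The split of *Reg1* among WT mice was shared by a gene of the proximal list. *Onecut2*, a transcription factor of the duodenum, had 68.1, 124 and 91.6 CPM in WT replicates 1 to 3 and 18.1 and 20.2 CPM in WT replicates 4 and 5, against 0.282 to 1.52 CPM in KO libraries. The 3 leading genes of that list varied less among WT mice, with *Lct* between 3363 and 3783 CPM and *Fabp1* between 1190.5 and 3063 CPM. *Gata4* had 217, 201 and 200.1 CPM in WT replicates 1 to 3 and 166 and 160.3 CPM in WT replicates 4 and 5. This was the same order with a much smaller gap. *Guca2a* of the ileum list went the other way, with 78.0 to 128 CPM in WT replicates 1 to 3, 347 and 446 CPM in WT replicates 4 and 5, and 552 to 770.3 CPM in KO libraries. The 2 other leading genes of the ileum list did not show such a gap, since *Fabp6* had 0.675, 0.0638, 0.817, 0.605 and 1.74 CPM in WT replicates 1 to 5, and *Slc51a* lay between 176 and 210.5 CPM in all of them. *Pyy* of that list did, with 2.28, 1.47 and 0.642 CPM in WT replicates 1 to 3 and 7.97 and 8.24 CPM in WT replicates 4 and 5. The rest of both lists is not given by library. *Gstm4*, a glutathione transferase among the genes most like *Reg1*, had 38.4 to 76.9 CPM in the first set, 11.1 and 14.7 CPM in the second and 6.59 to 8.53 CPM in KO libraries. These values of *Gstm4* restate the likeness by which it was chosen. *Reg1* in WT mice was thus highest in the libraries with the most *Onecut2* and the least *Guca2a*, as values of 5 libraries with no test.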
